A study of Mus musculus with 12 samples.

Results

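Expression of 10 genes of the integrated stress response was examined in immortalized mouse embryonic palatal mesenchyme (iMEPM) cells: *Atf4*, *Atf5*, *Ddit3*, *Ddit4*, *Trib3*, *Chac1*, *Asns*, *Psat1*, *Phgdh*, and *Slc7a11*. These genes were picked by symbol from the 51490 genes in the deposited table, and all 10 passed the filter on low counts, as did 15037 genes in total. In the integrated stress response, kinases that sense unfolded protein, amino acid shortage, double-stranded RNA, or heme deficiency phosphorylate the translation initiation factor eIF2, which lowers overall protein synthesis while translation of the transcription factor Atf4 increases. Atf4 then activates genes of amino acid synthesis and uptake, of glutathione turnover, and of feedback on the pathway itself. Because Atf4 is controlled largely at translation, its mRNA, which is what was measured here, need not follow its protein.

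iMEPM cells are an established line from a male Cdkn2a-/- embryo, so every sample carries this deletion. A lentivirus carried the shRNA into the cells, which were then selected with puromycin, sorted for GFP, and used at passages 9 to 20. One line, shSrsf3, received an shRNA against the splicing factor gene *Srsf3*, and the control line, scramble, a non-targeting sequence. All samples were serum starved, and were then left unstimulated (-PDGF-AA) or stimulated for 1 hr with PDGF-AA, a ligand of the receptor tyrosine kinase PDGFRα, at 10 ng/mL (+PDGF-AA). Each of the 4 conditions had 3 biological replicates. Each shRNA is represented by 1 transduced line, so that the effect of the shRNA and other differences between the lines cannot be told apart.

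Total counts ranged from 30958870 to 76123207 per sample, and the shSrsf3 +PDGF-AA samples had less depth (at most 37334636) than the scramble +PDGF-AA samples (at least 57313006). *Srsf3* mRNA itself was lower in shSrsf3 samples, with log2 fold changes of -0.34 ± 0.04 (SE) without ligand and -0.43 ± 0.04 upon ligand stimulation (adjusted p = 7.95e-06 and 9.54e-07 from edgeR's quasi-likelihood test). By western blotting, the study found a larger decrease of Srsf3 protein in the shSrsf3 line. Among scramble samples, -PDGF-AA replicates 1 and 2 and +PDGF-AA replicate 2 had a lower Salmon mapping rate in the study's methods than the other 9 samples. Scramble replicates of unequal mapping rate also differed more from each other over all genes (chi-square per degree of freedom 18.4 to 37.0) than did other replicate pairs (4.46 to 9.52). Results are therefore given also for the 9 remaining samples, among which scramble -PDGF-AA keeps 1 sample, whose spread is taken to be that of the other groups. Palatal mesenchyme markers had a summed level of 26314 to 28473 CPM (counts divided by the effective library size) per sample. Of the 10 markers, 9 were tested, *Meox2* being the exception at 0.182 CPM or less. Nearly all of the sum was *Col1a1*, *Col3a1*, and *Vim*, with means of 18235, 5027, and 4327 CPM in unstimulated scramble samples. *Osr2* and *Msx1* were low there, at 5.23 ± 0.990 and 1.70 ± 0.144 CPM (SD, n = 3). The sum also hides members that differed between the lines. Of the 9 tested, 2 were higher and 4 lower in shSrsf3 samples without ligand, and 2 higher and 3 lower with ligand. Without ligand, *Shox2* had 3.88 ± 0.576 CPM (SD, n = 3) in scramble and 13.0 ± 0.213 CPM in shSrsf3 cells, and *Pdgfra*, which encodes the receptor of the ligand, had 73.9 ± 6.24 and 51.3 ± 2.04 CPM. Markers of other cell types were low: 5 epithelial markers summed to 2.86 to 6.15 CPM, 4 leukocyte markers to 0.830 to 1.74 CPM, 4 neural and Schwann markers to 2.18 to 3.36 CPM, and 4 skeletal muscle markers to at most 0.107 CPM, with *Adgre1*, *Sox10*, and *Myod1* at 0 in all 12 samples. The 4 endothelial markers summed to 30.5 to 34.6 CPM in the 6 scramble samples and 19.1 to 22.6 CPM in the 6 shSrsf3 samples, nearly all of it *Tek*, whereas *Cdh5* was at 0.274 ± 0.0541 CPM (SD, n = 3) in unstimulated scramble samples but 1.37 ± 0.0704 CPM in unstimulated shSrsf3 samples. The epithelial sum was also lower in shSrsf3 (2.86 to 4.15 CPM) than in scramble samples (4.75 to 6.15 CPM). The part of these differences in the results below was not tested, and in bulk RNA fewer cells of a kind and less RNA per cell cannot be told apart.

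*Slc7a11*, *Chac1*, and *Asns* carried a known type of Atf4 recognition sequence before their transcription start and are shown because they encode proteins of different roles in the response: a cystine transporter, a glutathione-degrading enzyme, and an asparagine-making enzyme. The motif searched was TGATGNAA, the core of the C/EBP-ATF response element, on both strands of RefSeq promoter windows (250 bases before to 50 bases after the start, mouse build GRCm38.p6), a motif chosen with these sequences in view. Capitals mark the matches, and a match on the opposite strand is seen as its reverse complement.
Slc7a11: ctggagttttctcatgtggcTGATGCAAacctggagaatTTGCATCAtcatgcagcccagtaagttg
Chac1: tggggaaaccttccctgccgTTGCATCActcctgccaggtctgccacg
Asns: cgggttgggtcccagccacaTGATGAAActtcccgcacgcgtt

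The *Slc7a11* stretch lies at chr3:50443633-50443699 on the minus strand and holds 2 matches, 66 and 47 bases before the start, 1 on each strand. That of *Chac1* lies at chr2:119351029-119351076 on the plus strand with a match 193 bases before the start, and that of *Asns* at chr6:7693210-7693252 on the minus strand with a match 23 bases before the start. *Trib3* had its 1 match 14 bases after the start. The motif was found for 4 of the 10 genes, and for 4.51% of the 27025 genes in the RefSeq table and 3.97% of its 32851 promoters. Because the motif was chosen with these sequences in view, these shares do not test an enrichment. A match describes these letters in this window and is not evidence of binding, and the 6 other genes may be reached from sequence outside the window.

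All 10 genes were well measured, with at least 657 counts in every sample, and they differed widely in level. Per kilobase of the canonical transcript, unstimulated scramble samples had 316 ± 20.0 CPM (SD, n = 3) of *Atf4*, 306 ± 14.5 of *Atf5*, 154 ± 2.60 of *Psat1*, 132 ± 6.61 of *Phgdh*, and 52.6 ± 3.39 of *Asns*. Below these came *Ddit3* (34.1 ± 2.32), *Chac1* (25.9 ± 0.433), *Trib3* (25.4 ± 3.23), *Ddit4* (14.9 ± 2.09), and *Slc7a11* (2.71 ± 0.116). The bZIP factors *Atf4* and *Atf5* and the serine synthesis enzymes were thus the most abundant, while *Ddit3*, *Chac1*, *Trib3*, and *Ddit4* lay far below *Atf4*. The sample ranges of *Atf4* and *Atf5* overlapped, as did those of *Chac1* and *Trib3*, and every other neighboring pair in this order was separated. *Phgdh* shared 39.8% of its 31-base sequences with other genes, foremost the processed pseudogene *Gm7901*, so its counts are less certain, although *Gm7901* had at most 13 counts in any sample and *Phgdh* at least 8784. The other 9 genes shared at most 2.85%.

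**Figure D1:**
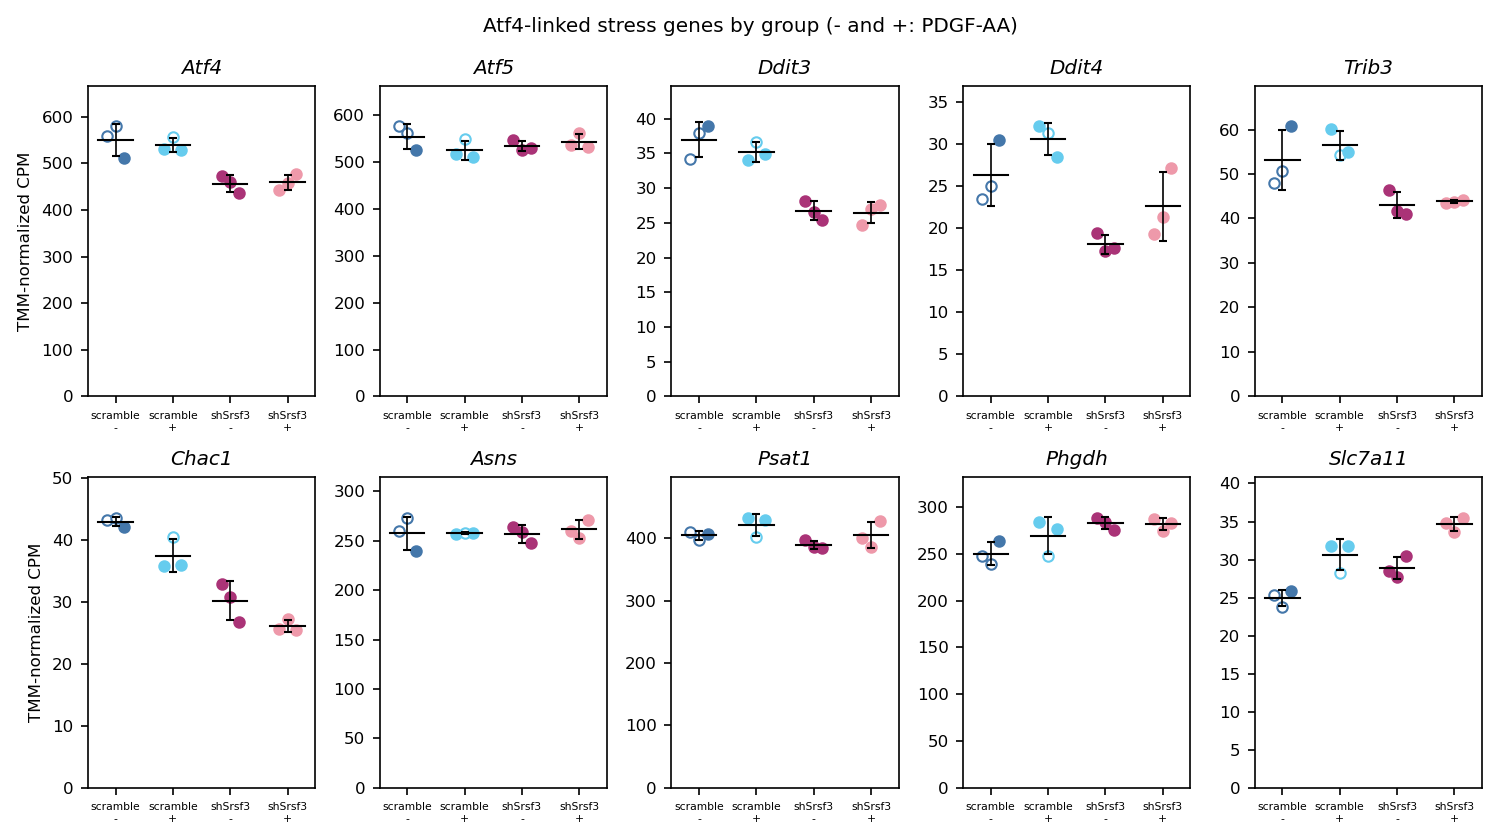
Normalized CPM of each gene in the 12 samples (y axis from 0; x axis: shRNA, and - or + for PDGF-AA). Points are samples, open where the mapping rate was lower, and bars are the mean ± SD (n = 3). *Atf4*, *Ddit3*, *Ddit4*, *Trib3*, and *Chac1* are lower in shSrsf3 samples at each ligand condition, and *Slc7a11* is higher in +PDGF-AA than in -PDGF-AA samples of the same line.

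To determine whether the response depends on Srsf3, scramble and shSrsf3 samples were compared at the same ligand condition. In the absence of ligand, 5 of the 10 genes were lower in shSrsf3 samples (*Atf4*, *Ddit3*, *Ddit4*, *Trib3*, and *Chac1*) and 2 were higher (*Phgdh* and *Slc7a11*) at an adjusted p of 0.05 or less, while 3 were not called (*Atf5*, *Asns*, and *Psat1*). Upon ligand stimulation, the same 5 genes were lower and *Slc7a11* was higher, and 4 were not called. The decreases were modest, at 14.9% to 31.3%, and 0 of the 10 genes reached the 2-fold change that defines a DE gene. Changes were common across the transcriptome: in the absence of ligand, 45.9% of all tested genes differed (22.2% higher, 23.7% lower) and 5.75% were DE, and upon ligand stimulation 41.0% differed (20.3% higher, 20.7% lower) and 5.42% were DE. The median log2 fold change of the 10 genes was -0.16 without and -0.14 with ligand, against -0.02 and -0.01 over all tested genes. Groups did not overlap for 8 of the 10 genes without ligand and 6 with ligand, compared with 53.3% and 52.6% of all tested genes.

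*Atf4*, the transcription factor at the center of the response (GRCm39 chr15:80139372-80141745, plus strand), had 559, 579, and 511 CPM in scramble -PDGF-AA replicates 1 to 3 and 472, 461, and 436 CPM in shSrsf3 -PDGF-AA replicates. All 3 shSrsf3 samples were below all 3 scramble samples. The log2 fold change was -0.27 ± 0.05 (SE) (adjusted p = 4.86e-04, edgeR's quasi-likelihood test). Upon ligand stimulation, scramble samples had 531, 557, and 529 CPM and shSrsf3 samples 443, 458, and 476 CPM, again without overlap. The log2 fold change was -0.23 ± 0.05 (adjusted p = 0.00161, edgeR). In the 9 samples of higher mapping rate, the difference without ligand was smaller at -0.17 (adjusted p = 0.0174, edgeR), since the 2 samples left out were the highest in *Atf4*, and that with ligand was -0.21.

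*Ddit3*, which encodes the bZIP factor CHOP linked to apoptosis under prolonged stress (chr10:127126698-127129622, plus strand), had 34.1, 37.9, and 38.9 CPM in unstimulated scramble samples and 28.2, 26.6, and 25.5 CPM in unstimulated shSrsf3 samples. With ligand, scramble samples had 34.0, 36.7, and 34.9 CPM and shSrsf3 samples 24.7, 27.0, and 27.6 CPM. The ranges of the 2 lines were far apart in both conditions. The log2 fold changes were -0.47 ± 0.06 and -0.41 ± 0.06 (adjusted p = 2.06e-05 and 7.82e-05, edgeR), and -0.54 and -0.39 in the 9 samples of higher mapping rate. *Ddit3* overlaps *Mars1* on the opposite strand, and the libraries were stranded.

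*Atf5*, a bZIP factor related to Atf4 and also translated under stress (chr7:44461680-44466082, minus strand), was not called. It ranged from 511 to 576 CPM in the 6 scramble and from 527 to 562 CPM in the 6 shSrsf3 samples, so the lines overlapped fully. Its log2 fold changes were -0.05 (95% interval -0.14 to 0.04) without and 0.05 (-0.04 to 0.14) with ligand, intervals that exclude a change of the size seen for *Ddit3*.

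Among the genes of feedback and effector functions, *Ddit4* encodes REDD1, an inhibitor of mTORC1 signaling (chr10:59785491-59788492, minus strand). It had 23.5, 24.97, and 30.4 CPM in unstimulated scramble samples, against 19.4, 17.3, and 17.6 CPM in unstimulated shSrsf3 samples. With ligand, scramble samples had 32.1, 31.3, and 28.5 CPM and shSrsf3 samples 19.3, 21.3, and 27.1 CPM. The groups did not overlap in either condition, although shSrsf3 +PDGF-AA replicate 3 came close to the lowest scramble sample. The log2 fold change was -0.54 ± 0.11, or a decrease of 31.3%, without ligand (adjusted p = 0.00147, edgeR), and -0.44 ± 0.11 with ligand (adjusted p = 0.00638, edgeR). These became -0.75 and -0.43 in the 9 samples, and the first was -0.40 without scramble -PDGF-AA replicate 3.

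*Trib3*, a pseudokinase that is induced by and restrains Atf4 and CHOP (chr2:152179337-152191958, minus strand), had 47.9, 50.6, and 60.7 CPM in unstimulated scramble samples, against 46.3, 41.6, and 41.1 CPM in unstimulated shSrsf3 samples. The highest shSrsf3 sample was just under the lowest scramble sample. With ligand, scramble samples had 60.1, 54.3, and 54.9 CPM and shSrsf3 samples 43.6, 43.8, and 44.1 CPM, a clearer separation. The log2 fold changes were -0.30 ± 0.08 and -0.36 ± 0.08 (adjusted p = 0.00532 and 0.00183, edgeR). The first rested in size on single samples: it was -0.18 (adjusted p = 0.0214, edgeR) without scramble -PDGF-AA replicate 3, and -0.50 in the 9 samples, where that replicate is the sole unstimulated scramble sample.

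*Chac1*, which encodes an enzyme that degrades glutathione (chr2:119180757-119184866, plus strand), had 43.2, 43.6, and 42.2 CPM in unstimulated scramble samples, against 33.0, 30.9, and 26.8 CPM in unstimulated shSrsf3 samples. With ligand, it had 35.8, 40.6, and 36.1 CPM in scramble samples against 25.6, 27.3, and 25.6 CPM in shSrsf3 samples. Both comparisons were without overlap. The log2 fold changes were -0.50 ± 0.07 and -0.52 ± 0.07 (adjusted p = 4.00e-05 and 4.26e-05, edgeR), and -0.48 and -0.46 in the 9 samples. The decreases of *Atf4*, *Ddit3*, *Ddit4*, *Trib3*, and *Chac1* in both ligand conditions kept their direction and an adjusted p of at most 0.0424 under all 19 alternatives tried (edgeR or DESeq2).

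**Figure D2:**
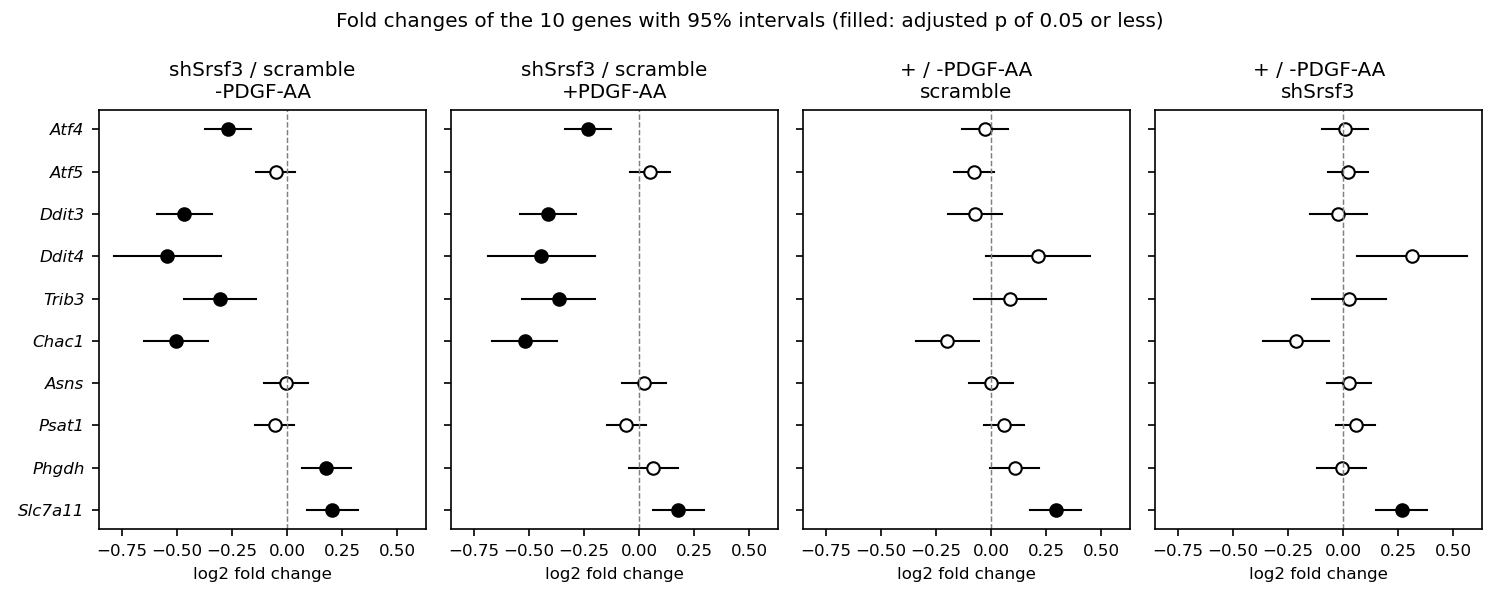
Log2 fold change (x axis) of the 10 genes (rows) in the 4 comparisons, with 95% intervals as lines and filled points for an adjusted p of 0.05 or less (edgeR). The intervals of *Ddit3*, *Ddit4*, *Trib3*, *Chac1*, and *Atf4* lie below 0 in both comparisons of shSrsf3 with scramble, and those of *Asns* and *Psat1* cross 0 in all 4 panels.

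The amino acid synthesis enzymes did not share these decreases. *Asns*, asparagine synthetase (chr6:7671667-7728461, minus strand), ranged from 240 to 273 CPM in the 6 scramble samples and from 247 to 271 CPM in the 6 shSrsf3 samples. Its log2 fold change was -0.0046 (95% interval -0.10 to 0.09) without and 0.02 (-0.08 to 0.12) with ligand. *Psat1*, the phosphoserine aminotransferase (chr19:15882039-15924701, minus strand), ranged from 397 to 432 CPM in the scramble line and from 384 to 427 CPM in the shSrsf3 line, with log2 fold changes of -0.06 (-0.14 to 0.03) and -0.06 (-0.15 to 0.03). Without ligand, its highest shSrsf3 sample fell just short of its lowest scramble sample, a separation far smaller than the SD of either group.

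*Phgdh*, phosphoglycerate dehydrogenase, which opens serine synthesis (chr3:98220484-98255047, minus strand), had 248, 239, and 264 CPM in unstimulated scramble samples, against 288, 284, and 276 CPM in unstimulated shSrsf3 samples. These groups did not overlap, and the log2 fold change was 0.18 ± 0.05 (adjusted p = 0.0118, edgeR). The 2 lowest values were the scramble samples of lower mapping rate, and in the 9 samples the difference was 0.10 (adjusted p = 0.0930, edgeR), which is no longer called. It was not called either without scramble -PDGF-AA replicate 2 alone (0.15, adjusted p = 0.0582, edgeR). With ligand, scramble samples had 285, 247, and 276 CPM, overlapping the 287, 275, and 283 CPM of shSrsf3 samples (log2 fold change 0.06, adjusted p = 0.351, edgeR).

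*Slc7a11*, the cystine-glutamate antiporter xCT that supplies cystine for glutathione (chr3:49846975-50398070, minus strand), was the sole member higher in shSrsf3 samples in both ligand conditions. It had 25.4, 23.8, and 25.8 CPM in unstimulated scramble samples, against 28.4, 27.8, and 30.5 CPM in unstimulated shSrsf3 samples. With ligand, it had 31.8, 28.3, and 31.8 CPM in scramble samples against 34.8, 33.7, and 35.5 CPM in shSrsf3 samples. No shSrsf3 sample fell to the level of a scramble sample at the same ligand condition. The log2 fold changes were 0.21 ± 0.05 and 0.18 ± 0.05 (adjusted p = 0.00686 and 0.0163, edgeR). Both fell short of the threshold in the 9 samples (0.15 and 0.12, adjusted p = 0.0644 and 0.0549, edgeR). The second also did so without scramble +PDGF-AA replicate 2 (0.12, adjusted p = 0.0675), shSrsf3 +PDGF-AA replicate 1 (0.18, adjusted p = 0.0537), or shSrsf3 +PDGF-AA replicate 3 (0.16, adjusted p = 0.0629), by the same edgeR test.

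To examine the effect of the ligand, -PDGF-AA and +PDGF-AA samples of the same line were compared. This comparison in scramble cells shares its unstimulated samples with that of shSrsf3 against scramble, so the values are given side by side. *Slc7a11* was the 1 gene of the 10 that rose, by a log2 fold change of 0.29 ± 0.05 in scramble (22.4%, adjusted p = 0.00753) and 0.26 ± 0.05 in shSrsf3 cells (20.2%, adjusted p = 0.0464, edgeR's quasi-likelihood test). In both lines, every +PDGF-AA sample exceeded every -PDGF-AA sample. Across all tested genes, 4.04% differed upon stimulation of scramble cells (0.200% DE) and 0.565% in shSrsf3 cells (0.0399% DE), and 0 of the 10 genes were DE in either. In scramble cells, groups did not overlap for 2 of the 10 genes, *Slc7a11* and *Chac1*, against 18.8% of all tested genes. For shSrsf3 cells, this share of all tested genes was not computed. The 10 genes had a median log2 fold change of 0.03 in scramble and 0.02 in shSrsf3 cells, with -0.01 and -0.0044 over all tested genes.

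The increase of *Slc7a11* in scramble cells was as large in the 9 samples (0.30, adjusted p = 0.0220, edgeR), but missed the threshold in a fit of those 2 groups alone (0.30, adjusted p = 0.0514, edgeR). That in shSrsf3 cells lay close to the threshold: leaving out each of the 12 samples in turn gave log2 fold changes from 0.24 to 0.30, with 8 of these 12 fits no longer calling it (adjusted p up to 0.259, edgeR). Those 8 samples were scramble -PDGF-AA replicate 1, shSrsf3 -PDGF-AA replicates 1 and 2, scramble +PDGF-AA replicates 1 and 3, and all shSrsf3 +PDGF-AA replicates. The fit of the 9 samples gave 0.27 (adjusted p = 0.00727, edgeR).

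*Chac1* had lower values upon stimulation, with log2 fold changes of -0.20 ± 0.07 in scramble and -0.21 ± 0.07 in shSrsf3 cells, neither past the threshold (adjusted p = 0.124 and 0.273, edgeR). Without scramble +PDGF-AA replicate 2, the value in scramble cells was -0.26 and passed it (adjusted p = 0.0450, edgeR). *Ddit4* had values of 0.21 ± 0.11 and 0.31 ± 0.12 (adjusted p = 0.334 and 0.371, edgeR), and in both lines its samples overlapped. In scramble cells this value of *Ddit4* depended on the unstimulated samples: it was -0.01 in the 9 samples and 0.35 (adjusted p = 0.0496, edgeR) without scramble -PDGF-AA replicate 3. *Trib3* behaved alike, with 0.09 in all samples, -0.08 in the 9 samples, and 0.21 (adjusted p = 0.0407, edgeR) without that replicate. The other 6 genes had log2 fold changes between -0.08 and 0.11 in scramble and between -0.02 and 0.06 in shSrsf3 cells. The hour of stimulation thus left *Atf4* mRNA at -0.03 (95% interval -0.13 to 0.08) and 0.01 (-0.09 to 0.11) in the 2 lines.

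The interaction, which is the difference between the ligand's effect in shSrsf3 and in scramble cells, was called for 0 of the 10 genes, and for 0.0133% of all tested genes. It ranged from -0.11 for *Phgdh* to 0.10 for *Atf5* on the log2 scale, with SEs of 0.06 to 0.16. For 0 of the 10 genes was its unadjusted p under 0.05, against 833 of all 15037 tested genes, and DESeq2 also called 0. For *Slc7a11*, the interaction was -0.03 (95% interval -0.19 to 0.14), and for *Ddit4* it was 0.10 (-0.24 to 0.44), so a difference of moderate size in the latter was not detectable.

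**Figure D3:**
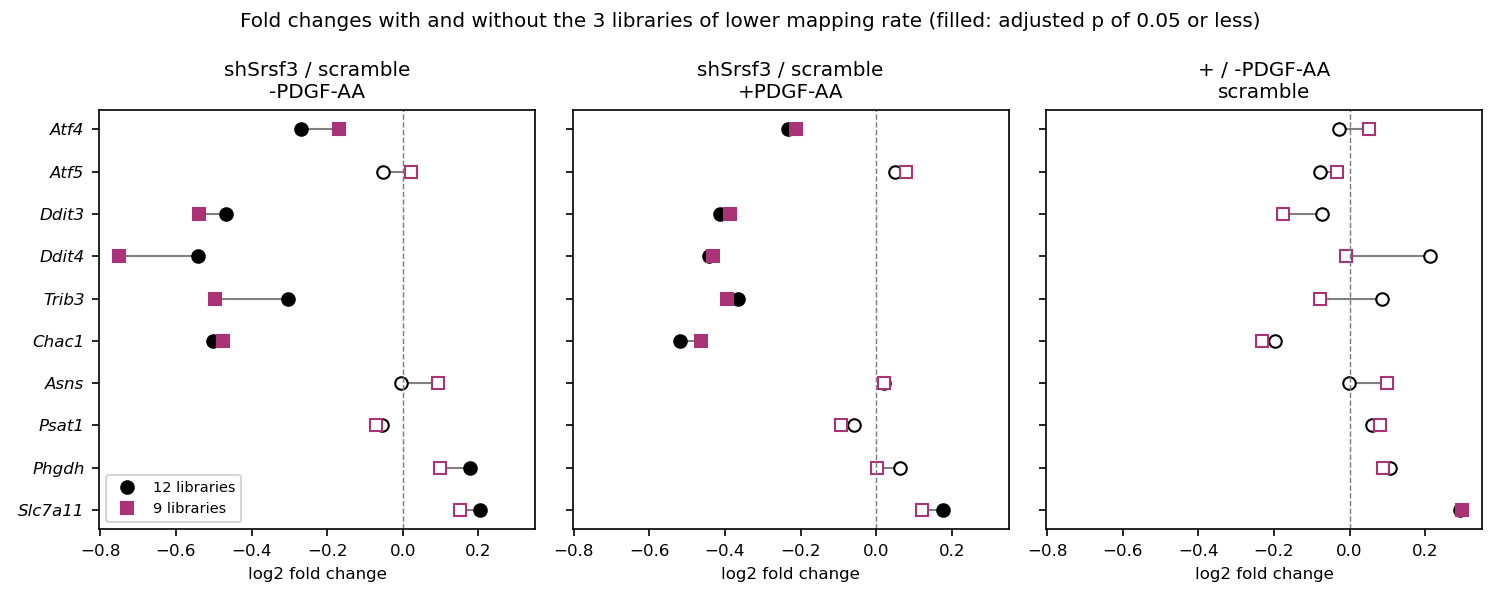
Log2 fold change (x axis) of the 10 genes (rows) in shSrsf3 against scramble without (left) and with (middle) ligand, and upon stimulation of scramble cells (right), from all 12 samples (circles) and from the 9 samples of higher mapping rate (squares), filled at an adjusted p of 0.05 or less (edgeR). The 5 lower genes stay filled in both comparisons of shSrsf3 with scramble. *Slc7a11* becomes open in both of these, and *Phgdh* in that without ligand. For the ligand in scramble cells, *Atf4*, *Ddit4*, *Trib3*, and *Asns* cross 0.

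The wider pathway was followed in 89 further genes of 7 lists, all of them tested. These lists were chosen with earlier results of these data known, so their counts do not test an enrichment. In shSrsf3 samples, 22 of the 89 were higher and 30 lower without ligand, and 20 higher and 26 lower with ligand, to be read against the shares of all tested genes given above. Of these, 19 were higher and 24 lower in both ligand conditions, and 0 were called in opposite directions. The share of all tested genes called alike in both conditions was not computed, so these counts describe the lists only. No gene of these lists was DE, and their median log2 fold change was -0.03 in both conditions.

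The endoplasmic reticulum chaperones and the Atf6/Xbp1 branch, which act beside Atf4 in the unfolded protein response, had 11 of 19 genes lower without and 12 of 19 with ligand, and 0 higher. Their median log2 fold changes were -0.16 and -0.17. Of all tested genes, 23.7% and 20.7% were lower in these conditions. *Dnajb9*, a cochaperone of the endoplasmic reticulum, fell by 0.69 ± 0.06 and 0.50 ± 0.06 on the log2 scale (adjusted p = 4.93e-07 and 1.65e-05, edgeR). *Sel1l*, part of the ubiquitin ligase complex for degradation of misfolded proteins, fell by 0.58 ± 0.04 and 0.48 ± 0.04 (adjusted p = 3.09e-08 and 2.13e-07, edgeR). Among the 19 genes, 9 and 12 were lower and 0 higher in the 9 samples.

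Of the 14 genes for the eIF2 kinases, eIF2, eIF2B, and the eIF2 phosphatase, 5 and 4 were lower in shSrsf3 samples without and with ligand and 0 were higher. Of all tested genes, 23.7% and 20.7% were lower and 22.2% and 20.3% higher. *Eif2ak3*, which encodes the kinase PERK that senses unfolded protein, had 29.8 ± 1.80 CPM (SD, n = 3) in unstimulated scramble samples, against 21.1 ± 0.906 CPM in unstimulated shSrsf3 samples. The log2 fold change was -0.49 ± 0.07 (SE; adjusted p = 3.84e-05, edgeR). With ligand, it was -0.47 ± 0.07 (adjusted p = 1.02e-04, edgeR). *Eif2ak2*, the kinase PKR activated by double-stranded RNA, had log2 fold changes of -0.37 ± 0.05 and -0.35 ± 0.05 (adjusted p = 2.76e-05 and 6.13e-05, edgeR). In the 9 samples, 3 and 4 genes of the list were lower, and 1 and 0 higher.

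Enzymes of serine, one-carbon, proline, and sulfur amino acid metabolism went mostly the other way, with 9 of 14 higher and 2 lower without ligand, and 7 higher and 2 lower with it. Their median log2 fold changes were 0.16 and 0.14. Of all tested genes, 22.2% and 20.3% were higher in these conditions. *Bcat1*, a branched-chain aminotransferase, rose by 0.55 ± 0.04 and 0.51 ± 0.04 (adjusted p = 2.37e-07 and 5.31e-07, edgeR). *Shmt1*, serine hydroxymethyltransferase of the cytosol, rose by 0.36 ± 0.06 without ligand (adjusted p = 3.05e-04, edgeR), and *Cth*, which makes cysteine from cystathionine, by 0.27 ± 0.05 with ligand (adjusted p = 0.00117, edgeR). *Shmt1* and *Cth* moved the same way in the other ligand condition. Upon stimulation, *Shmt1* averaged 12.3 CPM for the scramble line and 14.4 CPM for the shSrsf3 line. Unstimulated, *Cth* averaged 30.4 and 38.4 CPM in the same order. In the 9 samples, 8 of the 14 were higher and 2 lower in either condition.

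The remaining lists were mixed. Across all tested genes, 22.2% were higher and 23.7% lower without ligand, and 20.3% higher and 20.7% lower with ligand. Of 10 amino acid transporters, 3 were higher in each condition and 4 and 3 lower, with *Slc7a3*, a transporter of cationic amino acids, at 0.62 ± 0.07 and 0.59 ± 0.07 (adjusted p = 1.66e-05 and 2.67e-05, edgeR) and *Slc1a5*, which carries glutamine and other neutral amino acids, at 0.46 ± 0.04 and 0.43 ± 0.04 (adjusted p = 8.23e-07 and 1.77e-06, edgeR). Of 14 aminoacyl-tRNA synthetase and tRNA export genes, 4 were higher and 3 lower in each condition, the largest changes being those of *Yars* and *Wars1* for tyrosine and tryptophan (0.24 and 0.22 without ligand, 0.18 and 0.18 with ligand). *Wars1* was at 0.14 without ligand in the 9 samples. Of 8 bZIP partners and stress cofactors of Atf4, 3 were higher and 2 lower without ligand, and 2 higher and 1 lower with it, but the 2 lower genes were 0 in the 9 samples and also without scramble -PDGF-AA replicate 1. *Nfe2l2*, the regulator of antioxidant genes, was at 0.37 ± 0.06 and 0.38 ± 0.06, and *Nupr1*, a stress-induced chromatin protein, at 0.36 ± 0.06 and 0.54 ± 0.06 (adjusted p of 2.09e-04 or less in each, edgeR).

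Of 10 other outputs of the response, 3 were higher and 3 lower without ligand, and 4 higher and 1 lower with it. The shares of all tested genes were 22.2% higher and 23.7% lower without ligand, and 20.3% and 20.7% with it. *Gdf15*, a secreted stress cytokine, was higher by 0.78 ± 0.16 and 0.80 ± 0.16 (adjusted p = 0.00132 and 0.00126, edgeR), with 3.24 ± 0.700 CPM (SD, n = 3) in unstimulated scramble samples against 5.57 ± 0.827 CPM in unstimulated shSrsf3 samples. Without ligand, the difference of *Gdf15* was 0.48 in the 9 samples. *Vldlr*, a lipoprotein receptor, was at -0.43 ± 0.04 without ligand (adjusted p = 3.66e-06, edgeR). *Tnfrsf10b*, a death receptor, was at 0.34 ± 0.06 with ligand (adjusted p = 2.42e-04, edgeR). Each moved the same way in the other ligand condition. Upon stimulation, *Vldlr* averaged 82.1 CPM for the scramble line and 67.2 CPM for the shSrsf3 line. Unstimulated, *Tnfrsf10b* averaged 102 and 134 CPM in the same order.

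**Figure D4:**
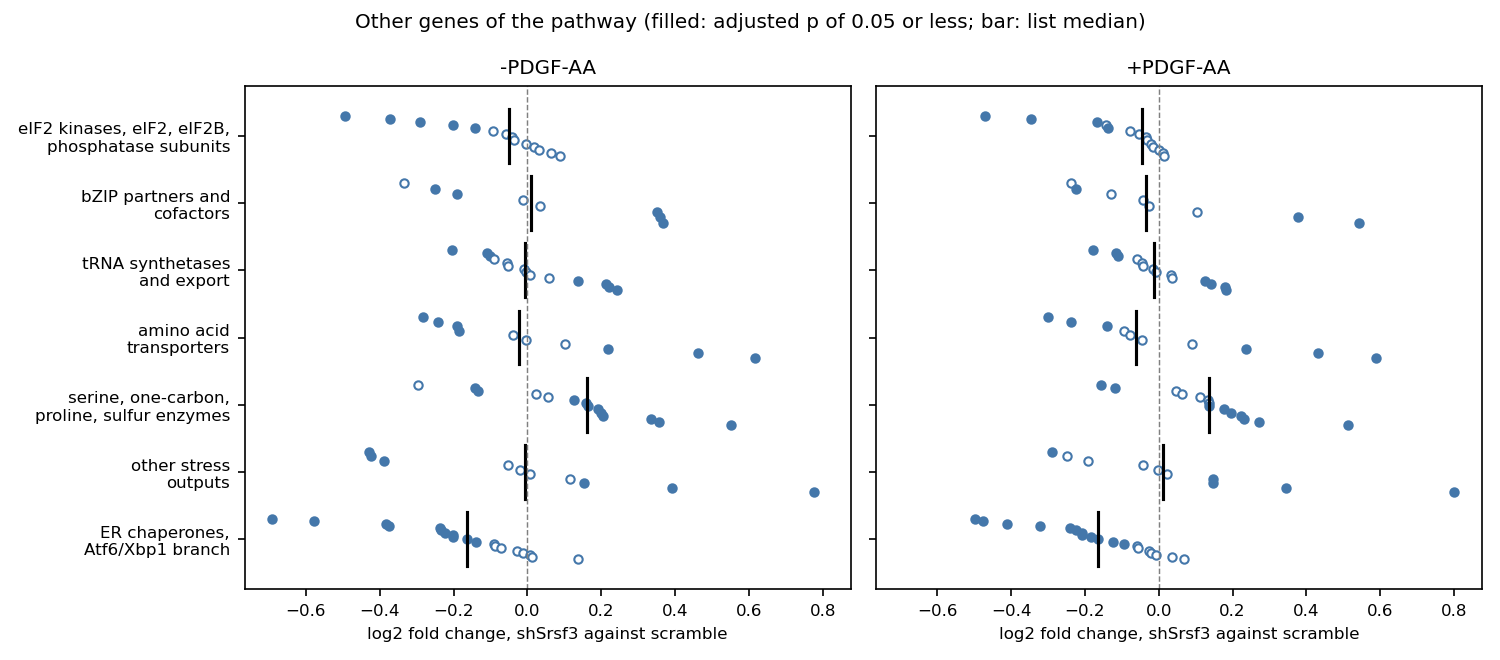
Log2 fold change of shSrsf3 against scramble (x axis) for the 89 genes of 7 pathway lists (rows), without ligand on the left and with ligand on the right. Points are genes, filled at an adjusted p of 0.05 or less (edgeR), and bars are list medians. The filled points of the chaperone and eIF2 rows all lie below 0, and those of the other rows lie on both sides of it.

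Upon ligand stimulation, 6 of the 89 genes were higher and 2 lower in scramble cells, and 3 higher and 0 lower in shSrsf3 cells, beside 4.04% and 0.565% of all tested genes in either direction. *Atf3*, a bZIP factor that is both an early response gene and an Atf4 target, rose from 21.6 ± 2.80 to 37.1 ± 2.47 CPM (SD, n = 3) in scramble cells, a log2 fold change of 0.79 ± 0.10 (adjusted p = 6.57e-04, edgeR). *Cebpb*, a dimer partner of Atf4, rose by 0.43 ± 0.07 in scramble and 0.46 ± 0.07 in shSrsf3 cells (adjusted p = 0.00493 and 0.0111, edgeR). *Vegfa*, the angiogenic growth factor, rose by 0.44 ± 0.05 and 0.39 ± 0.05 (adjusted p = 4.23e-04 and 0.00410, edgeR), and *Slc7a1*, a cationic amino acid transporter, by 0.31 ± 0.04 and 0.23 ± 0.04 (adjusted p = 3.57e-04 and 0.00915, edgeR). These 3 genes, and *Slc7a11* among the 10, were higher in both lines. In scramble cells, *Ppp1r15b*, the constitutive eIF2 phosphatase subunit, rose by 0.24 ± 0.04 and *Eif2ak3* fell by 0.33 ± 0.06 (adjusted p = 0.00360 and 0.0120, edgeR). *Atf3*, *Ppp1r15b*, and *Eif2ak3* were not called in shSrsf3 cells (adjusted p = 0.134, 0.182, and 0.0832, edgeR). Their values there had the same sign, at 0.39, 0.14, and -0.30. The interaction was called for 0 of the 89 genes, and for *Atf3* it was -0.39 (95% interval -0.70 to -0.08, adjusted p = 0.847, edgeR). Without ligand, *Atf3* was already higher in shSrsf3 than in scramble samples, by 0.35 ± 0.10 (adjusted p = 0.0132, edgeR). *Psph*, phosphoserine phosphatase, at 0.15 ± 0.04 and *Dnajb9* at -0.22 ± 0.06 were near the threshold (adjusted p = 0.0412 and 0.0479, edgeR), and neither was called in the 9 samples (adjusted p = 0.112 and 0.160, edgeR).

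As a description of which genes moved like these, the log2 CPM profile of each of 12261 genes with a mean count of at least 50 was centered and set against that of *Atf4* over the 12 samples. The smallest root mean square differences, 0.025 to 0.032 on the log2 scale, belonged to *Ufd1*, *Zeb1*, *Hgs*, *Ints13*, and *Topors*, while *Atf4* itself varied by 0.14 about its mean. The nearest of the other 9 genes was *Ddit3*, at rank 2758 with a difference of 0.12. This measure counts the size of the changes as well as their pattern, so that genes that changed little, such as *Psat1* at 0.12 and *Asns* at 0.13, scored about as near to *Atf4* as did *Ddit3*. The Pearson correlation with *Atf4*, which leaves out size, was 0.92 for *Ddit3*, 0.90 for *Chac1*, 0.72 for *Ddit4*, and 0.71 for *Trib3*. It was 0.44 for *Psat1*, 0.26 for *Atf5*, 0.25 for *Asns*, -0.61 for *Slc7a11*, and -0.78 for *Phgdh*. Both lines enter these correlations, so the differences between the lines reported above are part of them. The nearest profiles named above, from *Ufd1* to *Topors*, reached 0.97 to 0.99. How the correlation with *Atf4* was distributed over all 12261 genes was not examined. For *Ddit4*, which varied most between groups, the nearest profiles were those of *Lipg*, *Tubb3*, *Ephb3*, *Ube2v2*, and *Rps6ka5*, with differences of 0.11 to 0.14, and *Trib3* was the nearest of the 10 genes, at rank 46. These samples share 2 cell lines and 4 conditions, so the profiles are not independent observations.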

How the data were processed

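RNA-seq was performed on 12 samples, 3 biological replicates in each of 4 conditions. The authors trimmed reads with BBDuk, quantified transcripts with Salmon (1.4.0, per the submitters' processing notes, against GRCm39), summarized them per gene with tximport, and deposited expected counts, which are estimated read pairs per gene that are not scaled to library size. How tximport scaled the counts is not given in the sources used here. Of the deposited values, 16.3% were not whole numbers, and all were rounded.

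Low counts were removed by edgeR 4.0.16 (filterByExpr, minimum count 10) before normalization by the trimmed mean of M-values (TMM) and fitting in 1 quasi-likelihood model with a mean per condition, with Benjamini-Hochberg adjustment over 15037 genes. A gene differed where its adjusted p was at most 0.05, and a DE gene also changed by 2-fold or more. R 4.3.3 and, as an alternative, DESeq2 1.42.0 were used. An exact permutation test of 3 samples against 3 cannot give a p below 0.1. SEs came from the F statistics. In simulated counts for shSrsf3 against scramble without ligand (14828 genes), the model recovered 26.9% of genes changed by 0.25 on the log2 scale, 77.6% at 0.5, and 93.9% at 1. Only 67, 67, and 66 genes were changed at these sizes, whereas 45.9% of tested genes differed in the data. The Benjamini-Hochberg adjustment was thus stricter in the simulation, and these shares do not give the recovery in the data. Alternatives were RLE size factors, DESeq2, no filter, only the 2 groups compared, a replicate block, the 9 samples of higher mapping rate, a term for mapping rate, and leaving out each sample. Intervals cover the spread between these samples. In no comparison did all 3 pairs of same-numbered replicates deviate together, so the numbers were not taken to pair samples.

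The 10 genes and all lists were chosen with earlier results of these data known. Named beside the 10 genes and *Srsf3* are, per other list and comparison, any DE gene and the 2 called genes with the largest change, and the 5 genes nearest in profile to *Atf4* and to the member varying most between groups. Positions and transcript lengths are from GENCODE M39 on GRCm39.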

Additional observations from a re-analysis of the deposited data

How the results depend on the processing

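The decreases of *Atf4*, *Ddit3*, *Ddit4*, *Trib3*, and *Chac1* in shSrsf3 samples were called in both ligand conditions under all 19 alternatives, with log2 fold changes from -0.75 to -0.17. The number of the 10 genes called without ligand was 7, with 6 to 7 when leaving out 1 sample and 5 to 7 otherwise, and with ligand it was 6, with 5 to 6 and 5 to 7. For the ligand in scramble cells, 1 gene was called, 1 to 3 when leaving out 1 sample, 3 without a filter on low counts (*Slc7a11*, *Ddit4*, and *Chac1*), and 0 with only the 2 groups compared. In shSrsf3 cells, 1 gene was called, 0 to 1 when leaving out 1 sample, and 3 without a filter (the same 3 genes). *Atf5* was called higher with ligand (0.08, adjusted p = 0.0376, edgeR) with a term for the lower mapping rate, an alternative chosen after seeing the data. That term also ended the calls without ligand of *Phgdh* (0.08) and *Slc7a11* (0.12).

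Directions turned for some values that were not called. In the 9 samples of higher mapping rate and with the mapping term, *Atf5* without ligand was 0.022 and 0.020, *Asns* 0.094 and 0.049, and for the ligand in scramble cells *Atf4* was 0.052 and 0.011 and *Asns* 0.099 and 0.027. There, *Ddit4* was -0.010 and *Trib3* -0.079 in the 9 samples. *Asns* without ligand was 0.0035 with RLE size factors, 0.0031 with DESeq2, and 0.0029 with only the 2 groups compared, and for the ligand in scramble cells 0.0072, 0.0074, and 0.0095, and 0.0047 without a filter. Leaving out 1 sample gave -0.041 to 0.041 for *Asns* without ligand, -0.0027 to 0.044 with ligand, and, for the ligand in scramble cells, -0.039 to 0.044 for *Asns* and -0.067 to 0.012 for *Atf4*. For the ligand in shSrsf3 cells, it gave -0.021 to 0.035 for *Atf4*, -0.0016 to 0.039 for *Atf5*, -0.050 to 0.028 for *Ddit3*, -0.0037 to 0.083 for *Trib3*, -0.00017 to 0.049 for *Asns*, and -0.023 to 0.011 for *Phgdh*. The causes were not tested.

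The replicate numbers were not taken to pair samples, since the deviations of same-numbered samples correlated at -0.38, 0.48, and 0.38 in the comparison of the ligand in scramble cells and by no more elsewhere. With replicate number as a block, 7, 6, 1, and 1 of the 10 genes were called in the 4 comparisons and 0 for the interaction, as without it, and the log2 fold change of *Atf4* without ligand was -0.27. The count of genes over the transcriptome ranged from 243 to 1472 for the ligand in scramble cells (608 as reported), 23 to 374 in shSrsf3 cells (85), and 1 to 218 for the interaction (2), the upper values coming without a filter or, in scramble cells, without scramble -PDGF-AA replicate 3. Of 39 values of other pathway genes, 34 kept their call under every alternative, a check added after the data were seen, and the rest, *Psph*, *Dnajb9*, and *Eif2ak3* in scramble and *Cebpb* and *Slc7a1* in shSrsf3 cells upon stimulation, kept their direction.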
